A study of Mus musculus with 4 samples.

Results

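The Tfap2 genes encode the AP-2 family of transcription factors, and all 5 mouse members, Tfap2a, Tfap2b, Tfap2c, Tfap2d and Tfap2e, were chosen by name from the 43346 gene entries measured. The libraries came from wild-type mouse face tissue at embryonic stage e11.5, dissected into the outgrowths that meet to form the face, the lateral and medial nasal processes and the maxillary and mandibular processes. The nasal processes flank the nasal pit, and the maxillary and mandibular processes derive from the first pharyngeal arch. Each process was measured in 1 stranded total RNA library of mixed cells depleted of ribosomal RNA, without any treatment, and whether a library held 1 embryo or several was not given in the sources used here. The title and tissue label of the medial nasal library name that process, although the bracketed abbreviation after it is the one used for the lateral nasal process. With 1 library per process, there are no replicates to test a difference against, and p-values are not given. The intervals printed here are 95% intervals and cover counting error only.

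AP-2 proteins bind DNA as dimers at GC-rich palindromes through a helix-span-helix region near the carboxyl end that is shared by the whole family. In the embryo they act at the neural plate border, in the surface ectoderm and in the neural crest, the migratory cell population that builds most of the facial skeleton. Tfap2a and Tfap2b are known for their roles in crest and face, and changes in the human genes cause branchio-oculo-facial syndrome and Char syndrome, respectively. Tfap2c is best known from trophoblast, germ cells and surface ectoderm, Tfap2d from midbrain and retina, and Tfap2e from olfactory neurons.

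The libraries held 13216161 to 16163874 counts over genes, and 5 CPM (counts per 1000000 library counts) corresponded to 67.4 to 81.2 counts. Of all gene entries, 12406 reached 5 CPM in at least 1 library, among them 3 of the 5 members, Tfap2a, Tfap2b and Tfap2c. Tfap2d and Tfap2e stayed below 1 CPM in every library. Levels of 1 gene are compared between processes in CPM, and levels of different genes are compared in TPM, which scales transcript numbers, corrected for length, to the same total. In RNA from mixed tissue, fewer cells of a type and less RNA per cell cannot be told apart.

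The stretch of 50 coding bases that is most alike over the 5 members, without a gap and within 1 exon, shows how well the single-end reads of 50 bases can separate the paralogs. The bases below lie in exon 4 of every member and are printed 5′ to 3′ on the coding strand, with capitals at the bases that differ from Tfap2a. They were read from GRCm38 at chr13:40723106-40723155 (minus strand) for Tfap2a, chr1:19226591-19226640 (plus) for Tfap2b, chr2:172553568-172553617 (plus) for Tfap2c, chr1:19118931-19118980 (plus) for Tfap2d and chr4:126721870-126721919 (minus) for Tfap2e.
Tfap2a: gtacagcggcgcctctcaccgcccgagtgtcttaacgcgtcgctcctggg
Tfap2b: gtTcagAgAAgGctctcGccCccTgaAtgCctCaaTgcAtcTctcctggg
Tfap2c: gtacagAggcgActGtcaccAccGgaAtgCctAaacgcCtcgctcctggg
Tfap2d: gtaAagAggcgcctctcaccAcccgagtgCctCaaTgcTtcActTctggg
Tfap2e: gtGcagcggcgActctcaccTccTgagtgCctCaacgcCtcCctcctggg
Tfap2b differed from Tfap2a at 14 of these 50 bases, Tfap2c and Tfap2d at 9 each and Tfap2e at 8, and every pair of members differed at 8 to 14. Over the whole coding sequence, identity between members ranged from 52.9% for Tfap2c and Tfap2d to 69.4% for Tfap2a and Tfap2b. The longest identical coding run was 29 bases, between Tfap2a and Tfap2b, and no stretch of 50 bases was shared by annotated transcripts of any pair. The deposited posterior standard deviation of the gene count, the spread RSEM reports from dividing reads among genes, was 0 for every member in every library. A gene count sums over the isoforms of the gene, so this value does not score how reads were divided among them.

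Tfap2b had the highest level of the family in both nasal libraries. Tfap2b (chr1:19208914-19238576, plus strand) was counted 1778 times in the lateral and 2790 times in the medial nasal library, against 625 times in the maxillary and 301 times in the mandibular library. These counts corresponded to 109 CPM (interval 104 to 115), 206 CPM (199 to 214), 41.2 CPM (38.0 to 44.5) and 22.3 CPM (19.9 to 25.02). Both nasal libraries lay above both first arch libraries, the 4 intervals did not overlap, and the order was medial nasal, lateral nasal, maxillary, mandibular. The medial nasal library exceeded the mandibular library 9.23-fold (8.19 to 10.4) and the maxillary library 5.01-fold (4.59 to 5.47) in CPM. The lateral nasal library exceeded the maxillary library 2.66-fold (2.43 to 2.92), and within each region the folds were smaller, 1.88 (1.78 to 2.001) between the nasal and 1.84 (1.60 to 2.12) between the first arch libraries.

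Tfap2a, the founding member of the family, followed the same order of libraries at a lower level. Tfap2a (chr13:40715302-40738376, minus strand) had 187 counts in the lateral and 214 in the medial nasal library, against 104 in the maxillary library and 43 in the mandibular. In CPM these were 11.51 (interval 9.92 to 13.3), 15.8 (13.8 to 18.1), 6.85 (5.60 to 8.30) and 3.19 (2.31 to 4.30). The mandibular library was the lowest, and the 4 intervals did not overlap. The medial nasal library exceeded the mandibular library 4.96-fold (3.56 to 7.05) and the maxillary library 2.31-fold (1.82 to 2.95). The maxillary library exceeded the mandibular library 2.15-fold (1.49 to 3.14), and the nasal libraries differed 1.37-fold (1.12 to 1.68).

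Tfap2c had another order and was highest in the maxillary library. Tfap2c (chr2:172549593-172558622, plus strand) had 299 counts in the lateral and 232 in the medial nasal library, against 470 in the maxillary library and 288 in the mandibular. The levels were 18.4 CPM (interval 16.4 to 20.6), 17.1 CPM (15.0 to 19.5), 31.0 CPM (28.2 to 33.9) and 21.4 CPM (19.0 to 24.0). The maxillary interval lay above the other 3, which overlapped one another. The maxillary library exceeded the medial nasal library 1.81-fold (1.54 to 2.12), the lateral nasal library 1.68-fold (1.45 to 1.95) and the mandibular library 1.45-fold (1.25 to 1.68). The mandibular library exceeded the medial nasal library 1.25-fold (1.05 to 1.49). The lateral and medial nasal libraries were not distinguishable at this depth (1.07-fold, 0.901 to 1.28), nor were the mandibular and lateral nasal libraries (1.16-fold, 0.985 to 1.37).

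**Figure D1:**
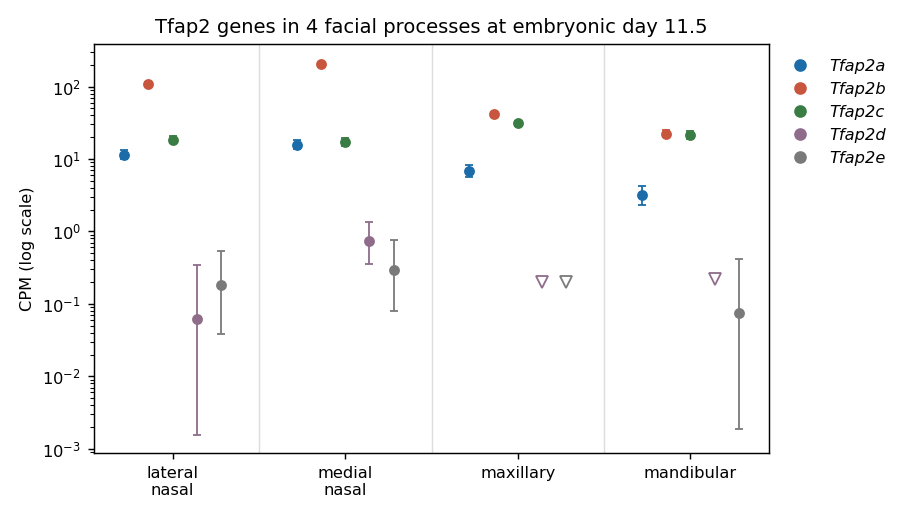
Level of the 5 Tfap2 genes in each library in CPM on a log scale, with points for the 4 processes along the horizontal axis, bars for the 95% counting interval and open triangles at 3 counts where the count was 0. Tfap2b falls from 206 CPM in the medial nasal to 22.3 CPM in the mandibular library, Tfap2c peaks at 31.0 CPM in the maxillary library, and Tfap2d and Tfap2e stay below 1 CPM.

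Tfap2d and Tfap2e were at or near the limit of detection. Tfap2d (chr1:19103022-19166346, plus strand), the neighbour of Tfap2b on chromosome 1 at a distance of 42567 bases, had 1 count in the lateral and 10 counts in the medial nasal library and 0 in both first arch libraries. The 10 medial nasal counts correspond to 0.739 CPM (0.354 to 1.36). With 3 counts set in each first arch library, that level was 3.74-fold above the maxillary and 3.32-fold above the mandibular library. These 2 folds leave out the counting error of the 10 counts. Against the single lateral nasal count the ratio was 12.0, with an interval from 1.71 to 521. Tfap2d was thus seen almost solely in the library in which Tfap2b was also highest, although its total over the 4 libraries was 11 counts against 5494 for Tfap2b. Tfap2e (chr4:126716006-126736240, minus strand) had 3, 4, 0 and 1 counts in the same order of libraries, and no difference between processes was detectable at this depth. A count of 0 allows a level of up to 0.185 to 0.223 CPM, depending on the library.

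In TPM, the length-corrected level, the make-up of the family differed between the nasal and the first arch libraries. Tfap2b stood at 21.1 TPM in the lateral and 40.6 in the medial nasal library, against 7.72 in the maxillary library and 3.79 in the mandibular. Tfap2c stood at 5.79, 5.39, 9.69 and 6.81 TPM, and Tfap2a at 3.52, 4.75, 2.01 and 0.95 TPM. Tfap2b was thus the leading member in both nasal libraries and Tfap2c in both first arch libraries, while Tfap2a was the lowest of the 3 in every library. The 5 genes summed to 30.5, 51.4, 19.4 and 11.6 TPM. Tfap2b made up 69.0% of this sum in the lateral and 79.0% in the medial nasal library, against 39.8% in the maxillary library and 32.7% in the mandibular. Tfap2c made up 19.0, 10.5, 49.9 and 58.8% of the sum, and Tfap2a 11.53, 9.24, 10.4 and 8.20%. The share of Tfap2a therefore stayed within 8.20 to 11.53% although its level varied. By counts, which are not corrected for length and for which exact binomial intervals can be given, Tfap2c held 13.2% (11.8 to 14.6) of the family in the lateral and 7.14% (6.28 to 8.08) in the medial nasal library, against 39.2% (36.4 to 42.0) in the maxillary library and 45.5% (41.6 to 49.5) in the mandibular. On this scale Tfap2b remained the larger in the maxillary library at 52.1% (49.3 to 55.0), and in the mandibular library its 47.6% (43.6 to 51.5) overlapped the interval of Tfap2c. Which member led in the first arch libraries therefore depended on the length correction.

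**Figure D2:**
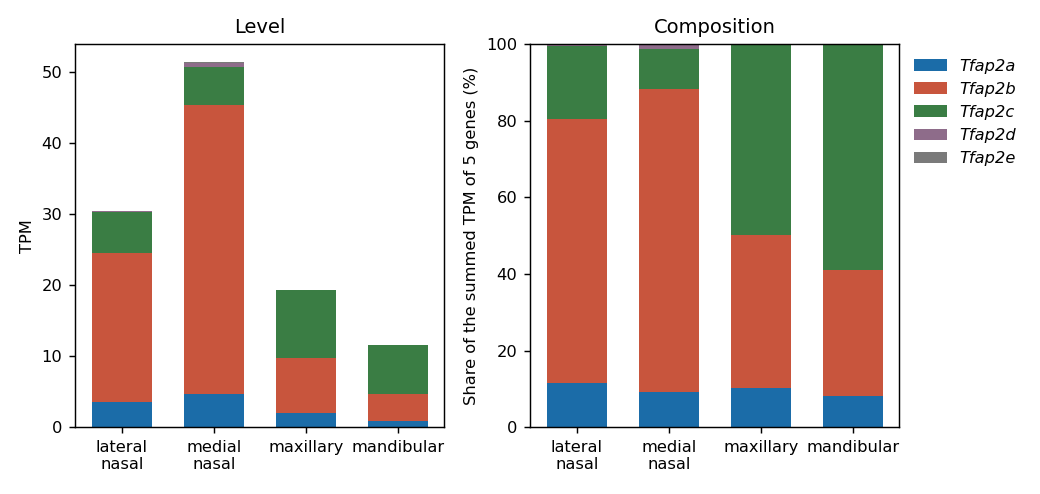
Stacked TPM of the 5 Tfap2 genes in each of the 4 libraries (left) and the percent share of each gene in that sum (right), with 1 library per process and no error bars. The sum falls from 51.4 TPM in the medial nasal to 11.6 TPM in the mandibular library, and the share of Tfap2c rises from 10.5 to 58.8% between these libraries.

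The length used for Tfap2b also varied between libraries. RSEM's mean transcript length for Tfap2b, weighted by its estimate of each isoform, was 4629 bases in the lateral and 4449 in the medial nasal library, against 4543 in the maxillary library and 5148 in the mandibular. The mandibular library, with the fewest Tfap2b counts, thus had the longest mean length. The medial nasal library exceeded the mandibular library 10.7-fold in TPM, against 9.23-fold in CPM. Posterior mean TPM of Tfap2b, another deposited estimate, were 39.01 in the medial nasal and 4.48 in the mandibular library. By that estimate the fold was smaller than in CPM, so that the wider fold in TPM depended on the estimate used. For Tfap2a the mean length stayed between 2965 and 2991 bases, and for Tfap2c between 2786 and 2896 bases.

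Against all genes, Tfap2b varied widely and Tfap2c moderately. The difference between the highest and lowest library on the log2(CPM + 0.5) scale was 3.18 for Tfap2b, 2.14 for Tfap2a and 0.83 for Tfap2c, and the median over the 12406 genes was 0.34. A range at least as wide was found for 1.01% of these genes in the case of Tfap2b, 2.63% for Tfap2a and 12.9% for Tfap2c. By mean TPM, 67.7% of the 12669 protein-coding genes at 1 TPM or more lay below Tfap2b, 37.6% below Tfap2c and 19.1% below Tfap2a. Tfap2a was therefore low among these genes in level and wide in range over the processes.

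A gene counted as higher in 1 process if its level there was 5 CPM or more and no other library came within 2-fold of it. It counted as lower in 1 process if every other library held 5 CPM or more and at least 2 times its level. None of the 3 members tested was called higher in a single process, where the share of all tested genes called was 0.226% for the lateral nasal, 1.17% for the medial nasal, 0.234% for the maxillary and 0.951% for the mandibular library. Tfap2b missed this call in the medial nasal library because the lateral nasal library was within 2-fold of it. Of the members, 1 was called lower in a single process, Tfap2a in the mandibular library, where 0.322% of tested genes were called. This call is at the threshold, since the 2.15-fold distance to the maxillary library became 1.99-fold after adding 0.5 CPM to both values. No member was called lower in the lateral nasal (0.169% of genes), medial nasal (0.145%) or maxillary library (0.0967%).

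Between the 2 regions of the face, 1 of 3 members, Tfap2b, lay at least 2-fold higher in both nasal than in both first arch libraries with 5 CPM or more on the higher side, compared with 1.01% of tested genes. None had first arch levels that were both 2-fold or more above the nasal levels, compared with 0.29% of tested genes. For Tfap2a the lower nasal value, 11.51 CPM, exceeded the higher first arch value, 6.85 CPM, by 1.68-fold. Tfap2c did not separate the regions in this way.

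Over single pairs of processes, the members apart by at least 2-fold, with 5 CPM or more in the higher library, were 0 of 3 between the lateral and medial nasal libraries (3.03% of all genes tested in that pair), 1 for the lateral nasal library against the maxillary (3.23%) and 2 for the lateral nasal against the mandibular library (5.37%). They were 2 for the medial nasal against the maxillary (5.7%), 2 for the medial nasal against the mandibular (5.89%) and 1 for the maxillary against the mandibular library (3.17%). Tfap2b accounted for the lateral nasal and maxillary pair, Tfap2a for the maxillary and mandibular pair, and both genes for the 3 pairs with 2 members. Tfap2c was not 2-fold apart in any of the 6 pairs. The pairs share libraries and are not independent of one another.

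**Figure D3:**
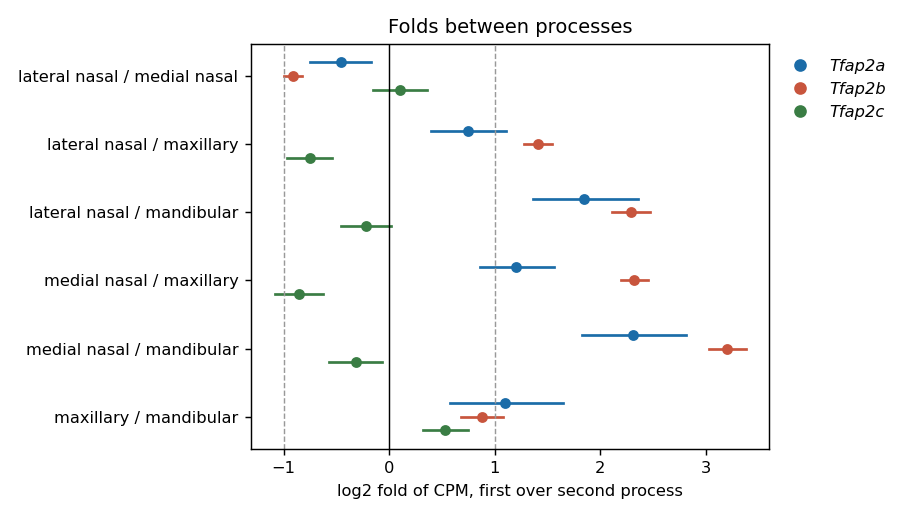
Log2 fold of CPM between the first and the second named process for Tfap2a, Tfap2b and Tfap2c in the 6 pairs of libraries, with 95% counting intervals as lines and dashed lines at 2-fold. Tfap2a and Tfap2b lie on the nasal side in all 4 pairs of a nasal with a first arch library, and Tfap2c lies on the first arch side in them, with 1 interval, that of the lateral nasal and mandibular pair, reaching 0.

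The genes around the members were read as well, since an antisense gene that overlaps Tfap2a has an entry of its own. Gm26688, an antisense RNA gene inside the Tfap2a locus (chr13:40727808-40735162, plus strand), was counted 19 times in the lateral and 26 in the medial nasal library, against 11 in the maxillary library and 5 in the mandibular. These were 10.2, 12.1, 10.6 and 11.6% of the Tfap2a counts, so that these small antisense counts kept nearly the same ratio to Tfap2a in every library. The kit keeps strand, but the strand setting used in counting was not given in the sources used here, so that some of these reads may be counted on either gene. Among nearest coding neighbours, Gcnt2 (a glucosaminyltransferase), beside Tfap2a, measured 10.03, 10.6, 3.36 and 5.72 CPM, and Bmp7 (a bone morphogenetic protein), beside Tfap2c, measured 77.8, 56.8, 55.0 and 31.1 CPM. Psmb2 and Ncdn on either side of Tfap2e, at distances of 6291 and 7509 bases, were well expressed, Ncdn at 35.3 to 38.3 CPM, where Tfap2e had at most 4 counts. Ofcc1, Pkhd1, Fam209 and Defb41, the remaining neighbours, lay below 1 CPM in every library, as did the antisense gene Gm15825 and the pseudogene Gm10075, which overlap Tfap2d.

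A start window of Tfap2a, which lies within the annotated span of the gene, is shown because it overlaps an exon of that antisense gene and is the sole member window with an AP-2 motif. Promoter windows from RefSeq (GRCm38.p6, 300 bases each, most of it upstream of an annotated start) were found for 4 of the 5 members, in 7 windows. They were searched on both strands for the AP-2 palindromes GCCNNNGGC and GCCNNNNGGC, which can overlap, and 27.0% of all 32851 windows held at least 1 of them. The window at chr13:40734871-40735170 (minus strand), 1 of 2 for Tfap2a, held GCCNNNNGGC once, in capitals.
Tfap2a: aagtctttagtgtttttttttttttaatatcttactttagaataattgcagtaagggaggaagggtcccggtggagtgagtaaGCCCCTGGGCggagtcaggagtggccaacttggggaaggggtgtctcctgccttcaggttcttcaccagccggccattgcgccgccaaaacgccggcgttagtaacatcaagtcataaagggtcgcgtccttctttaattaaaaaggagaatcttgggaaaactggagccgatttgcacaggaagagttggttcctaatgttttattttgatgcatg
The other 6 windows, including the 1 of Tfap2b, held neither spelling. The GC content of the 7 windows ranged from 39.7 to 61.0%, around the median of 52.7% over all windows. A match describes letters only, and so does its absence.

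The genes most alike to each member in profile were sought among 11513 protein-coding genes by the Euclidean distance between log2(CPM + 0.5) values centred on each gene's mean over the 4 libraries. Closest to Tfap2a were Hecw1 (a ubiquitin ligase, distance 0.09), Cadm3 (a neural cell adhesion molecule, 0.09) and Otx1 (a homeobox factor of fore- and midbrain, 0.14). Closest to Tfap2b were Dmrta1 (a DM-domain transcription factor, 0.13), Cldn11 (a claudin, 0.20) and Ap3b2 (a neuronal vesicle adaptor subunit, 0.24). Closest to Tfap2c were Maoa (monoamine oxidase A, 0.11), Axin2 (a feedback inhibitor and target of WNT signalling, 0.12) and Clstn2 (a calsyntenin, 0.12). Tfap2b ranked 219 among the neighbours of Tfap2a and Tfap2a ranked 66 among those of Tfap2b, at a distance of 0.93, and Tfap2c ranked 10909 and 11063. The 4 values per gene come from the same 4 libraries, so that anything particular to 1 library is shared by these profiles.

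**Figure D4:**
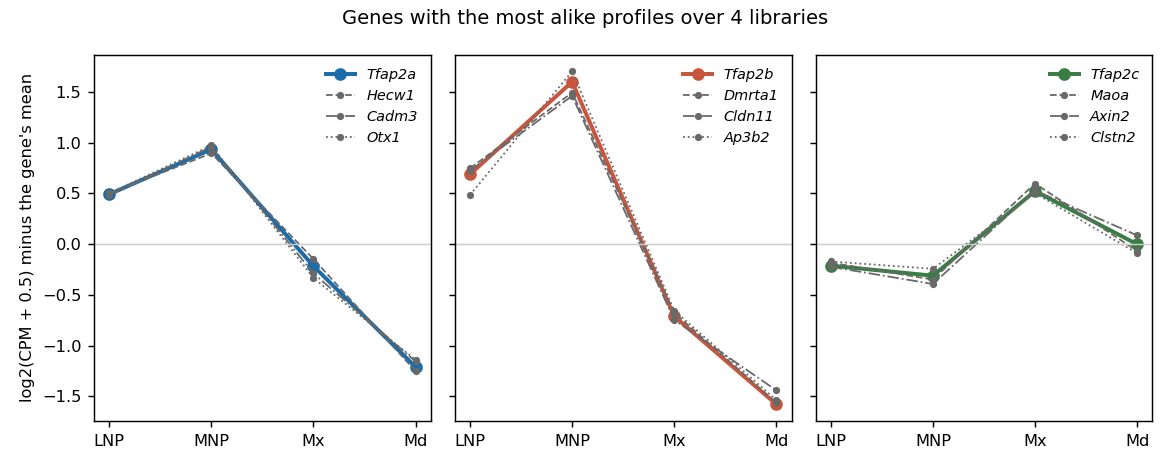
Centred log2(CPM + 0.5) of Tfap2a, Tfap2b and Tfap2c (coloured lines) and of the 3 genes with the most alike profile to each (dark lines) in the lateral nasal (LNP), medial nasal (MNP), maxillary (Mx) and mandibular (Md) libraries. Tfap2a and Tfap2b fall from medial nasal to mandibular over 2.14 and 3.18 log2 units, and Tfap2c peaks in the maxillary library over 0.83 units.

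The medial nasal library, the highest for both Tfap2a and Tfap2b, also carried neural marker genes. All 6 forebrain neuroepithelium markers were higher there than in the mean of the other 3 libraries, and their summed level was 11.4 CPM in the lateral and 33.5 in the medial nasal library, against 15.5 in the maxillary library and 4.60 in the mandibular. The 5 midbrain markers summed to 8.80, 23.0, 4.28 and 2.08 CPM, of which Otx1 gave 6.15, 8.72, 3.23 and 1.63 CPM. En2, a homeobox factor of the midbrain-hindbrain boundary, read 0.0615, 5.62, 0.198 and 0.148 CPM. The midbrain sum had the same order of libraries as Tfap2a and Tfap2b, and in the forebrain sum the maxillary library passed the lateral nasal. Most of that maxillary sum came from 1 forebrain marker, Emx2, at 6.15, 7.54, 14.1 and 3.79 CPM. Emx2 was the 1 forebrain marker above the mean of the other 3 libraries in the maxillary library, whereas the lateral nasal library had 2. All 5 olfactory epithelium markers were above the mean of the other 3 in both nasal libraries, with sums of 65.4, 76.0, 3.23 and 1.19 CPM. Fezf1 and Sp8, which mark the olfactory placode, were at 0 in the mandibular library. Lhx2, another of the 5, read 18.2, 26.1, 1.25 and 0.891 CPM, and the remaining markers had 1 and 3 counts in the mandibular library. Cranial sensory neuron markers summed to 153, 260, 127 and 44.02 CPM, with 7 of 7 above the mean of the other 3 in the medial nasal library and 0 of 7 in the mandibular library. The olfactory and sensory neuron sums also had the order of Tfap2a and Tfap2b. Otx1, 1 of the midbrain markers, is the third most alike gene to Tfap2a, and Tubb3, a neuronal tubulin gene on the sensory neuron list (102, 170, 86.0 and 29.7 CPM), ranked 18 at a distance of 0.43. The part of neural or olfactory tissue in the Tfap2a, Tfap2b and Tfap2d levels was not tested.

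Epithelium and mesenchyme, the tissues in which AP-2 factors are known in the face, were both present in every library. The 12 epithelial markers summed to 467, 414, 363 and 289 CPM, and 8, 8, 4 and 1 of them exceeded the mean of the rest, with Cdh1 (E-cadherin) at 57.2, 54.1, 38.5 and 39.7 CPM. Epcam, an epithelial adhesion molecule (65.1, 53.0, 29.2 and 22.8 CPM), ranked 115 by likeness to Tfap2a. Trp63, another of the 12 (42.0, 36.8, 51.0 and 40.2 CPM), was highest in the maxillary library and ranked 8612. The ranks of these markers for Tfap2a ran from 40 to 11412, so that they did not share 1 profile. The 6 mesenchymal markers summed to 1542, 1215, 2035 and 1932 CPM, and 3, 1, 5 and 3 of them exceeded the mean of the rest, with Prrx1, a homeobox factor of facial mesenchyme, at 379, 282, 888 and 864 CPM. Msx1, another of them, was lowest in the mandibular library (266, 192, 239 and 115 CPM). The mesenchymal sum was thus lowest in the library with the most Tfap2b. Schwann cell precursor markers summed to 59.1, 102, 69.0 and 58.5 CPM, and none of the 5 measured was above the mean of the other 3 in the lateral nasal library. Eye markers were highest in the lateral nasal library, at 30.3 CPM against 1.18, 9.81 and 1.04, and the lens crystallin gene Cryaa was at 0 in the medial nasal and mandibular libraries. The eye and Schwann sums did not follow the order of any member.

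The partners and targets of AP-2 were described from 6 lists of 46 genes. Over all 16146 genes with at least 1 CPM in a library, the median distance of 1 library from the mean over the other libraries, on the log2(CPM + 0.5) scale, was 0.01 for the lateral nasal, -0.01 for the medial nasal and -0.00 for both first arch libraries, beside which the list medians can be read.

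Of the 6 coactivators, 5 reached 5 CPM in a library and 1 was called. This was Cited1, a transcriptional adaptor called higher in the mandibular library, as were 0.951% of all tested genes. Cited1 measured 2.77, 6.28, 3.62 and 31.3 CPM, listed here and below from lateral nasal over medial nasal and maxillary to mandibular. Its mandibular value lay far above the other 3, in the library with the lowest Tfap2a and Tfap2b. Cited2, the related adaptor, measured 11.0, 14.5, 11.53 and 9.35 CPM, with all libraries within 1.55-fold. The acetyltransferases Crebbp (245, 339, 263 and 366 CPM) and Ep300 (129, 169, 133 and 185 CPM) and Yeats4 (76.4, 61.6, 70.2 and 66.2 CPM) did not reach 2-fold either. The list medians were -0.20, 0.19, -0.18 and 0.16.

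All 4 inhibitors and modifiers reached 5 CPM, and none was called by any of these rules. The inhibitor Kctd15 measured 88.6, 67.9, 72.3 and 64.4 CPM, and Npm1, the nucleophosmin gene, 1076, 909, 1099 and 1187 CPM. The highest fold between any libraries in this list was 1.55, for Kctd1, also an AP-2 inhibitor and named after its values were seen, and the list medians were -0.10, 0.08, -0.05 and 0.09.

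Of the 12 neural plate border and crest factors, 10 reached 5 CPM and 4 were called higher in 1 process. Of these, 2 were called in the lateral nasal (0.226% of all tested genes) and 2 in the medial nasal library (1.17%). Of the same 4 genes, 2 were also called higher in both nasal than in both first arch libraries (1.01%). Pax7, a paired-box factor, measured 113, 21.1, 4.08 and 3.49 CPM and Pax3, its relative, 155, 55.1, 69.4 and 29.6 CPM, both highest in the lateral nasal library. Zic1, a zinc-finger factor, measured 6.77, 30.0, 1.12 and 0.668 CPM, and Sox9, a factor of crest and cartilage, 40.7, 113, 18.7 and 31.8 CPM, both highest in the medial nasal library. Pax7 and Zic1 were at least 2-fold higher in both nasal than in both first arch libraries, as Tfap2b was. The mesenchymal factors Msx1 (266, 192, 239 and 115 CPM) and Twist1 (222, 121, 263 and 159 CPM) and Ets1 (76.9, 64.2, 69.6 and 75.8 CPM) were not called. The list medians were 0.25, -0.11, 0.27 and -0.37.

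All 10 ectodermal factors and keratins reached 5 CPM. Of these, 1 was called higher in the mandibular library (0.951% of all tested genes) and 2 higher in both nasal than in both first arch libraries (1.01%). Krt8 (49.7, 49.8, 19.4 and 17.1 CPM) and its partner Krt18 (41.7, 42.7, 14.8 and 15.7 CPM), the keratins of simple epithelium, were at least 2-fold higher in both nasal than in both first arch libraries. Dlx3, a homeobox factor of the distal arch, was highest in the mandibular library (7.20, 8.06, 6.39 and 17.7 CPM). The basal epithelial genes did not share 1 order. Krt14, at 33.5, 23.8, 66.2 and 33.8 CPM, and Trp63, at 42.0, 36.8, 51.0 and 40.2 CPM, were highest in the maxillary library, as Tfap2c was. Krt15, named after its values were seen, was highest in the mandibular library (12.1, 6.06, 14.5 and 27.7 CPM). Krt5, also named after its values were seen, measured 27.6, 22.4, 47.9 and 30.4 CPM and ranked 10 of 11513 by likeness to Tfap2c, at a distance of 0.19. The list medians were -0.03, 0.01, -0.04 and -0.20.

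All 8 facial homeobox genes reached 5 CPM, and 5 were called. The calls were 2 higher in the mandibular library (0.951% of all tested genes) and 1 lower in the lateral nasal library (0.169%). Between the regions, 1 was higher in both nasal libraries (1.01%) and 2 were higher in both first arch libraries (0.29%). Alx1, a factor of frontonasal mesenchyme, ranked 21 by likeness to Tfap2b, the nearest of the genes in any list (267, 266, 65.9 and 39.0 CPM, distance 0.66), and was at least 2-fold higher in both nasal libraries. Its relative Alx4 (300.04, 278, 188 and 212 CPM) was not called. Among the Dlx genes, which pattern the arches along their length, Dlx1 (3.51, 7.32, 61.2 and 84.6 CPM) and Dlx2 (1.66, 3.47, 12.0 and 13.3 CPM) had both first arch levels 2-fold or more above both nasal levels, and Dlx1 was also called lower in the lateral nasal library. Dlx5 (2.77, 6.80, 5.27 and 17.4 CPM) and Dlx6 (4.06, 9.09, 7.77 and 32.2 CPM) were called higher in the mandibular library, and both were lower in the maxillary than in the medial nasal library. The called genes of this list thus lay in both directions, and the list medians were -0.55, 0.02, -0.22 and 0.65.

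Of the 8 other target genes, 6 reached 5 CPM, 1 was called higher in the mandibular library (0.951% of all tested genes) and 1 had at most 2 counts in a library. Hoxa2, a homeobox factor known from the second arch and hindbrain, had 0, 0, 3 and 91 counts and was called higher in the mandibular library, where it reached 6.76 CPM. Erbb2 (71.8, 78.4, 71.4 and 75.8 CPM), a receptor tyrosine kinase and long-known AP-2 target in breast cells, and Mmp2 (186, 177, 186 and 174 CPM), a matrix protease, were nearly level. Erbb3, the partner of Erbb2, measured 49.5, 79.2, 41.2 and 44.7 CPM, and Igfbp5, an insulin-like growth factor binding protein, 454, 736, 368 and 527 CPM, both highest in the medial nasal library without a call. The list medians were -0.09, 0.22, -0.44 and 0.04.

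**Figure D5:**
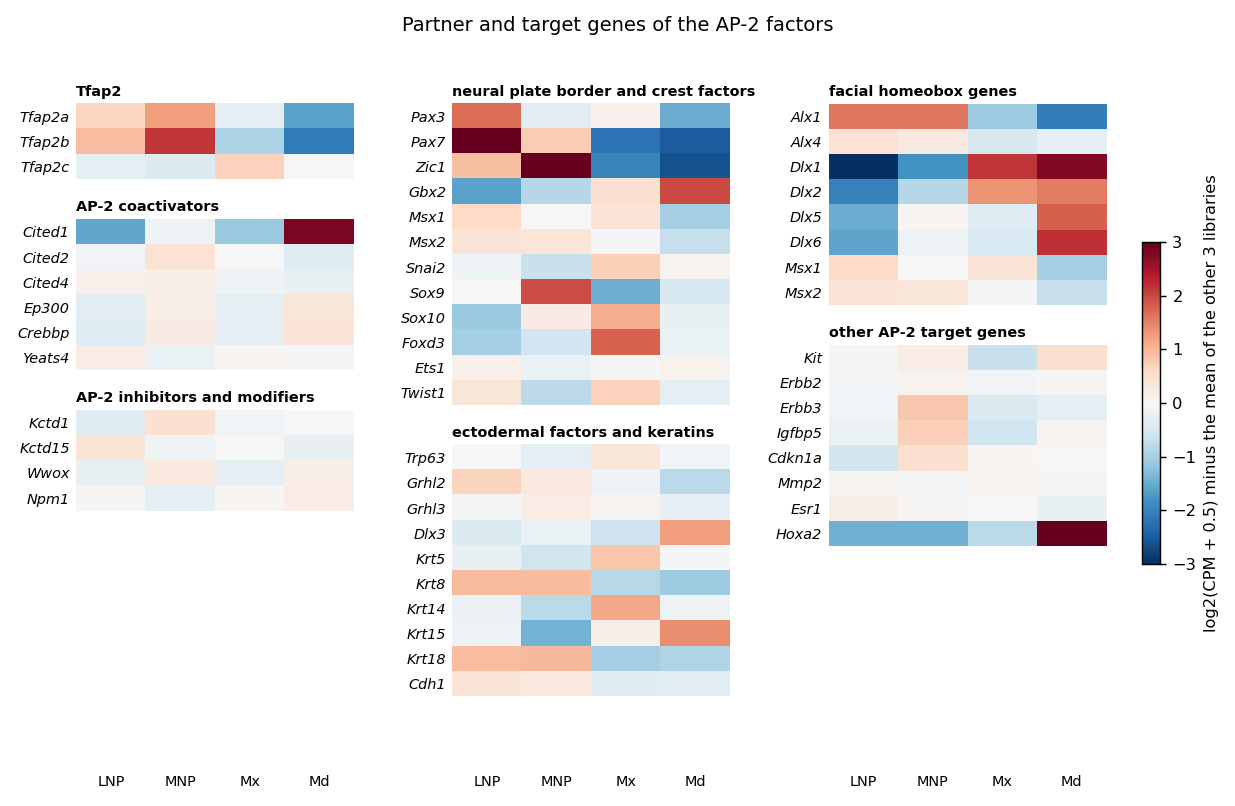
Difference between each library and the mean of the other 3 on the log2(CPM + 0.5) scale for Tfap2a, Tfap2b and Tfap2c and for the 6 partner and target lists, with red for higher and blue for lower, colours clipped at 3 units and columns for the lateral nasal (LNP), medial nasal (MNP), maxillary (Mx) and mandibular (Md) libraries. Msx1 and Msx2 stand in 2 lists, and the strongest colours belong to transcription factors such as Pax7, Zic1, Dlx1 and Hoxa2, while the 4 inhibitors and modifiers stay within 1.55-fold.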

How the data were processed

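Bulk RNA-seq libraries of 4 facial processes, 1 each, were analysed. The authors used STAR for alignment to mm10 and RSEM 1.4.1 with GENCODE M4 annotation for quantification, as in the submitters' processing notes and the study's methods. The authors deposited expected counts, not normalized, and TPM, which correct for transcript length, beside transcript lengths. They also deposited posterior standard deviations of the gene count, used here as a score of read assignment between genes. Expected counts of 43346 gene entries were rounded. Another 26248 entries carrying only a number, with at most 5 counts per library, and 96 spike-in entries, with 0 counts, were left out. Symbols and coordinates came from the GENCODE M21 annotation of GRCm38 (mm10), to which 42462 IDs matched.

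CPM refer to library totals times TMM factors from edgeR 4.0.16 (0.985 to 1.02), and 0.5 was added before log2. Library totals of 13216161 to 16163874 set the precision. Intervals are exact Poisson, conditional binomial for folds and Clopper-Pearson for shares. No p-value was computed. Coding sequences were aligned with MAFFT 7.526. The calls were tested on simulated data. Alternatives were DESeq2 1.42.0 size factors, other scalings, thresholds and pseudocounts.

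The members and lists were chosen with earlier results of these data known. Named were the members, list genes called by any rule and up to 4 further genes per list with the highest mean CPM, up to 3 genes per marker list by mean CPM, the 3 most alike genes per member, and overlapping or nearest coding genes. Some genes of the partner and target lists are not reported here and were left out of the list counts and medians.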

Additional observations from a re-analysis of the deposited data

How the results depend on the processing

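With 1 library per process, no library could be left out of a group, and differences cannot be separated from variation between embryos or dissections. No paired analysis was possible because each process had 1 library. No fold or called value of a member changed direction under the alternatives run. Of the values that answer a comparison, 124 kept their side of the threshold or stayed within the spread allowed, 12 moved, 6 became stronger and 18 weaker. Among the 124 were counts of 0 that stayed 0. With deposited TPM in place of CPM, 1 member was apart in each of the lateral nasal and mandibular, medial nasal and maxillary, and medial nasal and mandibular pairs, since Tfap2a, at most 4.75 TPM, fell below the minimum of 5. The count of 1 for lower in the mandibular library and for the maxillary and mandibular pair stayed but passed from Tfap2a to Tfap2b, 2.04-fold apart in TPM. With TPM, 0 partner or target genes were called lower in a process and 3 separated nasal from first arch, and the Tfap2b fold of medial nasal over mandibular was 10.7. At a minimum of 20 CPM, no member was lower in 1 process (0), the same 3 pairs held 1 member each, and the maxillary and mandibular pair held 0. At 1.5-fold, 1 member was higher and 2 were lower in 1 process, 2 separated nasal from first arch, and the lateral and medial nasal, lateral nasal and maxillary, and maxillary and mandibular pairs held 1, 3 and 2, while the medial nasal and maxillary pair rose from 2 to 3. At 3-fold, the counts were 0 lower, 0 nasal above first arch, 1 in the medial nasal and maxillary pair and 0 in the lateral nasal and maxillary and in the maxillary and mandibular pairs. By counts not corrected for length, family shares were 8.25, 6.58 and 8.67% for Tfap2a in the libraries other than the mandibular, 78.4, 85.8, 52.1 and 47.6% for Tfap2b and 13.2, 7.14, 39.2 and 45.5% for Tfap2c in all 4. Tfap2b, not Tfap2c, thus led in the maxillary library, and in the mandibular library the intervals of the 2 genes overlapped. Of the list medians, 3 near 0 changed sign: border and crest factors in the medial nasal library from -0.11 to 0.11 over genes at 5 CPM or more, homeobox genes there from 0.02 to -0.01 with 2 CPM added, and other targets in the mandibular library from 0.04 to -0.00 with TPM. In an alternative chosen after seeing the data, 0.5 CPM added before the fold, Tfap2a lost its call in the mandibular library (0 members lower), the maxillary and mandibular pair held 0, and 0 partner or target genes were called lower. Scaling to protein-coding genes alone shifted the median gene by 0.18 to 0.24 log2 in every library.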
